A study of Mus musculus with 12 samples.

Results

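CC chemokines are small secreted proteins that draw leukocytes through G protein-coupled receptors. Ackr4, named Ccrl1 on the arrays, is an atypical receptor that takes up CC chemokines such as CCL19, CCL21 and CCL25 without G protein signalling. The 9 ligand genes Ccl2, Ccl3, Ccl4, Ccl5, Ccl7, Ccl8, Ccl9, Ccl11 and Ccl20, together with Ackr4, were described across all 4 groups. They were chosen by name: every non-control probe whose gene name in the scanner files is one of these genes or the alias Ccrl1 was taken. This gave 13 probes for 10 genes, of 41174 probes and 27670 gene names on the arrays. Of the 10 genes, 9 passed the filter on dim probes and were tested among 20836 genes. Ccl3 did not pass.

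Fibroblasts are a source of CC chemokines in inflamed tissue, where Ccl2 and Ccl7 draw monocytes by way of Ccr2. The glucocorticoid receptor (GR) is a hormone-activated transcription factor that binds DNA and represses many chemokine genes, in part by restraining NF-kappaB and AP-1. Atypical receptors lower the amount of free ligand, so a scavenging receptor and its ligands act on the same pool.

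RNA came from mouse embryonic fibroblasts (MEFs) that had been derived from E12.5 embryos on a C57Bl/6 background. WT cells were set beside cells homozygous for the GR-C3 knockin, in which exon 2 of the receptor gene keeps, of the start codons of its translational isoforms, that of GR-C3 alone. The knockin line goes back to 1 embryonic stem cell clone. Cells of both genotypes received either vehicle or, at 100 nM, the synthetic glucocorticoid dexamethasone (Dex) for 6 hours, which made 4 groups with 3 one-colour arrays each. The labels name biological replicates without saying whether these were separate embryos or cultures, so a p-value here reflects only how these samples vary, which may be technical.

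A level is the log2 processed signal with the array's own 75th percentile (signals of 884 to 1821) subtracted. On single arrays, between 70.7 and 78.4% of probes gave signals well above background. A level belongs to its own probe, so levels of different genes are not ranked against each other. One array, labelled WT vehicle replicate 1, stood apart: across genes it correlated at 0.983 or more with its own group and at 0.987 to 0.989 with WT Dex, while the other WT vehicle arrays correlated at 0.998. It was alone on its slide and scan day. Fkbp5, a glucocorticoid-induced co-chaperone used as a check of the treatment, changed with Dex by 3.33 in WT and 3.07 in GR-C3 cells on the log2 scale over 12 arrays, and neither change passed (limma adjusted p = 0.129 and 0.193). Its level on this vehicle array was 1.51, against a mean of 2.04 in WT Dex and -2.29 in GR-C3 vehicle. With the array left out the Fkbp5 changes were 4.72 and 3.07 (limma adjusted p = 1.3e-07 and 4.46e-06). The text therefore says whether a result is over 12 arrays or over the 11 without it, a choice made from its expression values and not from its label. The fibroblast markers (9 of 9, from Col1a1 to Fn1) were well above background on all arrays.

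RefSeq (build GRCm38.p6) gave promoter windows for 5 of the 10 members (Ackr4, Ccl3, Ccl8, Ccl9 and Ccl20), and 3 are shown, those with a motif match and that of Ackr4, the receptor. They are the 250 bases before the start site. Capitals mark matches on either strand to 3 motifs, none of which overlap: the NF-kappaB core GGANTTTCC, the GR half-site TGTTCT and the AP-1 site TGANTCA.
Ackr4, chr9:104126644-104126893, minus strand: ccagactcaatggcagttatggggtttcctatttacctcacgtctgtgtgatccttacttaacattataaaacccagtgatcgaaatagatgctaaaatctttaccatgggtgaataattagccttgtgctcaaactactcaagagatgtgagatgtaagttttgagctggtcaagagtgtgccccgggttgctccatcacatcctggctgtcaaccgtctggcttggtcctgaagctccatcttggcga
Ccl20, chr1:83116516-83116765, plus strand: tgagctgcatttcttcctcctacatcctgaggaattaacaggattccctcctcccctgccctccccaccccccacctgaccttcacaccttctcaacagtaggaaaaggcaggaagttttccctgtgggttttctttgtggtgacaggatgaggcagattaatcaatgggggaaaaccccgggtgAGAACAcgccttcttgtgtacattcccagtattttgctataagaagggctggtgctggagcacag
Ccl9, chr11:83578637-83578886, minus strand: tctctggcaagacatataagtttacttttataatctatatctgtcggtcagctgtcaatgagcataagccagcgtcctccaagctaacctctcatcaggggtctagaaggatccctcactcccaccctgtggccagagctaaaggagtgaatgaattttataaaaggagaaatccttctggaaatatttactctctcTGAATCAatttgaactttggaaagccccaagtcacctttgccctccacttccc
The Ccl20 window held the half-site on the minus strand, its first letter 65 bases before the start site, and 16.1% of 32851 promoter windows of this length held such a match. The Ccl9 window matched the AP-1 letters with TGAATCA, whose middle letter the search left free, 53 bases before the start site. Of all windows, 6.75% held a match to these letters. The windows of Ackr4, Ccl8 and Ccl3 held none of the 3 motifs, and the NF-kappaB core was found in 1.07% of all windows. A match is a run of letters and not a bound site.

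Ccl2, the main monocyte-attracting ligand of Ccr2, was measured by a probe spotted 10 times per array at chr11:82118723-82118782 (build mm7, as for all probe positions). In the order of the replicate numbers, WT cells gave levels of 2.85, 4.997 and 4.70 under vehicle and 2.84, 2.85 and 2.58 with Dex. In GR-C3 cells it was 4.90, 5.07 and 5.08 under vehicle and 4.19, 4.19 and 4.18 with Dex. The low WT vehicle value is that of the array that stood apart and lies within the range of WT Dex, while the other arrays of each group do not overlap with those of the other treatment.

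Over 11 arrays Ccl2 fell with Dex 4.27-fold in WT cells, a log2 change of -2.09 ± 0.12 (SE; limma adjusted p = 6.29e-06), and 1.78-fold in GR-C3 cells (-0.83 ± 0.11, adjusted p = 0.00312). The GR-C3 change was the smaller by 1.26 ± 0.16 on the log2 scale (95% interval 0.90 to 1.63, limma adjusted p = 0.00734 for the interaction). Over 12 arrays neither change passed the limma test (WT -1.43 ± 0.42 with adjusted p = 0.165, GR-C3 -0.83 ± 0.42 with adjusted p = 0.471), nor did the interaction (0.60, 95% interval -0.71 to 1.91, adjusted p = 0.917). Within slide 2, which held 2 WT vehicle arrays and 1 WT Dex array, Ccl2 changed by -2.01, and within slide 4, with 1 GR-C3 vehicle array and 3 GR-C3 Dex arrays, by -0.89. A fit with slide as a block gave the same changes, since no other slide held both treatments of a genotype. They passed (limma adjusted p = 0.00102 and 0.043), and the interaction of 1.12 did not (adjusted p = 0.168). In this fit the slide term takes up WT vehicle replicate 1, alone on its slide, so that array does not bear on the changes. Here and below, a blocked Dex change rests on 2 vehicle arrays against 1 Dex array in WT cells, and on 1 against 3 in GR-C3 cells. With normexp background correction over 11 arrays, an alternative added after seeing the data, the WT call of Ccl2 held. The GR-C3 change (-0.88, limma adjusted p = 0.995) and the interaction (1.69, adjusted p = 0.457) of Ccl2 did not pass. Both kept their calls over 11 arrays with normexp after local backgrounds were repaired.

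Ccl2 was also higher in GR-C3 than in WT cells under Dex, by 1.43 ± 0.42 over 12 arrays (limma adjusted p = 0.0266) and ± 0.11 over 11 (adjusted p = 8.79e-06). Under vehicle the difference was 0.17 over 11 arrays (95% interval -0.10 to 0.44, limma adjusted p = 0.332) and 0.84 over 12 (adjusted p = 0.175). The genotypes thus lay close under vehicle on the arrays other than the one that stood apart, and apart under Dex without overlap. The Dex difference over 12 arrays lost its call without any single array of WT Dex or GR-C3 Dex, with values of 1.34 to 1.48.

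Ccl7, a second Ccr2 ligand and the neighbour of Ccl2, followed a like order. Its main probe (chr11:82128729-82128788) read 2.27, 3.40 and 3.25 in WT vehicle and 2.09, 2.32 and 2.38 in WT Dex. In GR-C3 cells it read 3.80, 3.72 and 3.97 without Dex and 3.50, 3.46 and 3.32 with it. All 6 GR-C3 arrays except GR-C3 Dex replicate 3 lay above all WT vehicle arrays, with that array between them.

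Over 11 arrays Ccl7 fell 2.08-fold with Dex in WT cells (-1.06 ± 0.12, limma adjusted p = 0.000391). In GR-C3 cells its change was -0.40 ± 0.11 (limma adjusted p = 0.0855), and the interaction of 0.66 had a 95% interval of 0.29 to 1.02 before adjustment and an adjusted p = 0.103. Over 12 arrays neither Dex change of Ccl7 passed (-0.71, adjusted p = 0.201, and -0.40, adjusted p = 0.536). Within slides 2 and 4 the changes of Ccl7 were -1.23 and -0.55. The fit with slide as a block gave these same values, from the same few arrays. In it the WT change passed (limma adjusted p = 0.00187) and the GR-C3 change did not (adjusted p = 0.0749).

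Between genotypes Ccl7 was higher in GR-C3 cells under vehicle, by 0.86 ± 0.24 over 12 arrays (limma adjusted p = 0.0249) and 0.51 ± 0.12 over 11 (adjusted p = 0.0126). Under Dex it was 2.24-fold higher (1.17 ± 0.24, adjusted p = 0.00489 over 12 arrays). The vehicle call over 12 arrays was lost without any GR-C3 vehicle array (0.79 to 0.92), and over 11 arrays without WT vehicle replicate 3 (0.43). With slide as a block the vehicle difference shrank to 0.17 (adjusted p = 0.591) and the Dex difference was 0.86 (adjusted p = 0.011). Slide 3 alone held both genotypes, as WT Dex and GR-C3 vehicle arrays. Here and for the genes below, a blocked genotype difference is therefore reached through other groups and is not a difference within a slide. A second Ccl7 probe (chr11:82128577-82128636) made the same calls, among them -1.01 ± 0.12 for Dex in WT over 11 arrays (limma adjusted p = 0.000683) and 1.20 for genotype under Dex.

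**Figure D1:**
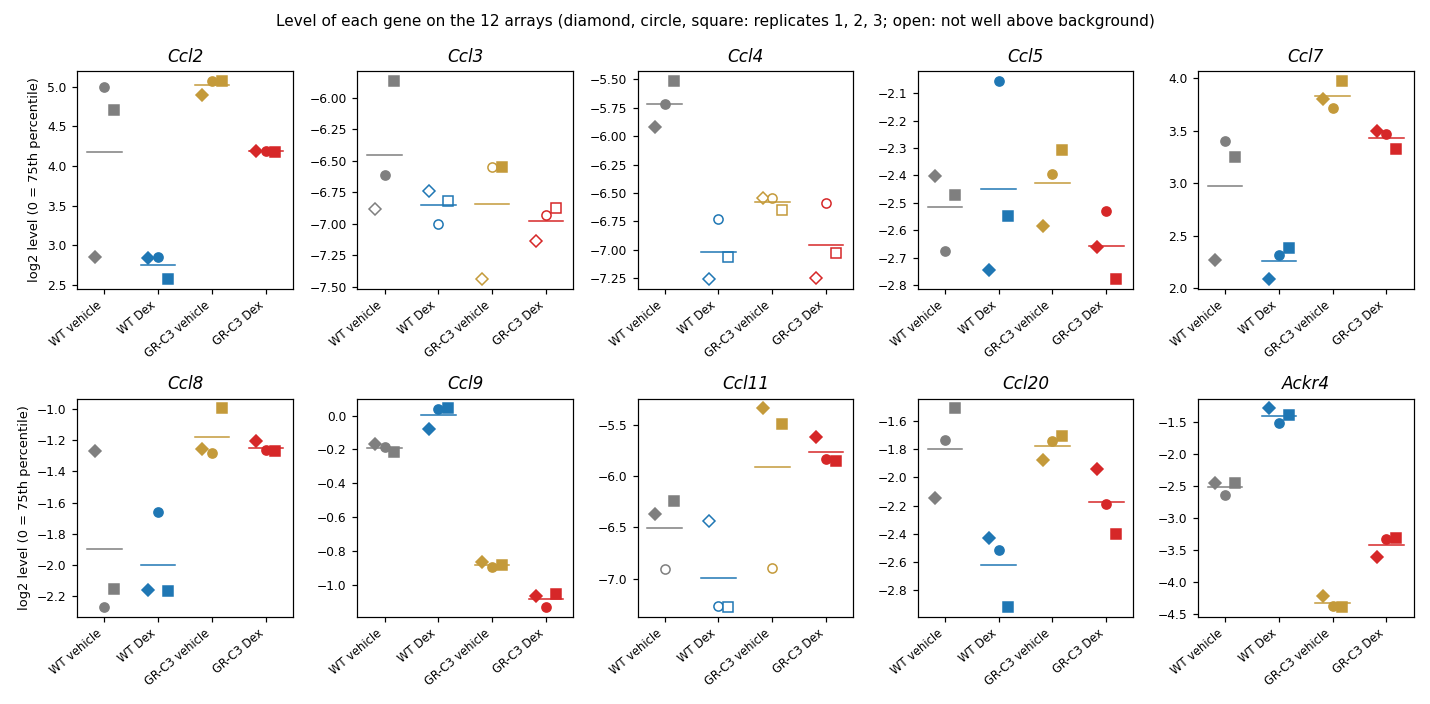
Level of each member on the 12 arrays, as log2 signal minus the array's 75th percentile (vertical axes differ between panels; bars are group means, symbols mark replicates 1, 2 and 3, open symbols are not well above background). Each panel shows the main or only probe of the gene. The diamond of WT vehicle sits with WT Dex for Ccl2 (2.85) and Ccl7 (2.27), while the 4 groups of the main Ackr4 probe do not overlap. The second Ackr4 probe, which is not drawn, had overlapping groups.

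Ccl8, a CC chemokine gene of the same cluster (chr11:82198181-82198240), read -1.27, -2.27 and -2.16 in WT vehicle and -2.16, -1.66 and -2.17 in WT Dex. The GR-C3 arrays read -1.26, -1.28 and -0.996 under vehicle and -1.21, -1.26 and -1.27 with Dex. The array that stood apart was here the highest WT array, within the range of the GR-C3 arrays, and no other WT array reached that range.

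No Dex change of Ccl8 passed the test (-0.10 in WT and -0.07 in GR-C3 over 12 arrays, limma adjusted p = 0.864 and 0.934). Ccl8 was higher in GR-C3 cells under vehicle by 0.72 ± 0.24 over 12 arrays (limma adjusted p = 0.0486) and 1.03 ± 0.16 over 11 (adjusted p = 0.00118). Under Dex it was higher by 0.75 ± 0.24 (adjusted p = 0.0362) and, over 11 arrays, with an adjusted p = 0.00249. Blocking on slide, these Ccl8 differences were 0.69 and 0.39 (adjusted p = 0.14 and 0.31), and with planned normexp background correction the one under Dex turned to -0.11. Over 12 arrays the vehicle call of Ccl8 held without only 2 of the 12 arrays in turn, WT vehicle replicate 1 and WT Dex replicate 2 (0.53 to 1.03 over all 12), and the Dex call was lost without WT Dex replicate 1 or 3 or any GR-C3 Dex array (0.67 to 0.92 over all 12).

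Ccl11, or eotaxin, which draws eosinophils (chr11:82144145-82144204), was close to background. It was well above background on 2 of 3 WT vehicle arrays, on none in WT Dex, on 2 of 3 in GR-C3 vehicle and on all 3 in GR-C3 Dex, where it read -5.62, -5.84 and -5.86. The signals were -6.37, -6.91 and -6.25 in WT vehicle, -6.44, -7.27 and -7.28 in WT Dex and -5.34, -6.90 and -5.49 in GR-C3 cells under vehicle, so that the genotypes did not overlap under Dex and did under vehicle. The Ccl11 probe entered the tested set only through GR-C3 Dex, so a higher level there is tied to the filter, and the value is a description: at least 1.61-fold higher in GR-C3 than in WT cells under Dex. The limma adjusted p = 0.0325 over 12 arrays and 0.0324 over 11 became 0.054 and 0.0559 with no filter on dim probes. The difference turned to -1.03 on the log2 scale with planned normexp. Blocking on slide, the fitted Ccl11 difference was 0.87 (adjusted p = 0.441). The call was lost without WT Dex replicate 2 or 3 or any GR-C3 Dex array. No Dex change of Ccl11 passed, with a fitted -0.49 in WT and 0.14 in GR-C3 cells (limma adjusted p = 0.541 and 0.909).

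Ccl5, which attracts T cells and monocytes, had 2 probes. The main one (chr11:83595699-83595758) read -2.40, -2.67 and -2.47 in WT vehicle and -2.75, -2.05 and -2.55 in WT Dex. In GR-C3 cells it read -2.58, -2.39 and -2.31 without Dex and -2.66, -2.53 and -2.78 with it. The groups of this probe overlapped and no comparison passed (log2 differences of -0.23 to 0.09 over 12 arrays in the 4 group comparisons, the lowest limma adjusted p = 0.367; over 11 arrays the lowest was 0.341). The second Ccl5 probe (chr11:83595850-83595905) read -4.39, -4.10 and -4.30 in WT Dex and -4.72, -4.69 and -5.05 in GR-C3 Dex, with no overlap. It was lower in GR-C3 than in WT cells under Dex (-0.56 ± 0.15, limma adjusted p = 0.02 among all probes kept, 0.0166 over 11 arrays), so that the 2 Ccl5 probes gave different calls there.

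Ccl9, a ligand of Ccr1 (chr11:83644626-83644685), read -0.17, -0.19 and -0.21 in WT vehicle and -0.08, 0.04 and 0.04 in WT Dex, against -0.87, -0.90 and -0.88 in GR-C3 cells without Dex and -1.07, -1.13 and -1.06 with it. The genotypes did not overlap under either treatment, and here the array that stood apart lay with its own group.

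Ccl9 was lower in GR-C3 cells by 1.62-fold under vehicle (-0.69 ± 0.083, limma adjusted p = 0.000167) and by 2.12-fold under Dex (-1.09 ± 0.083, adjusted p = 6.86e-06). Both calls were kept over 11 arrays, without each single array, and with slide as a block (-0.80 and -1.13). With normexp, planned for 12 arrays, the vehicle call of Ccl9 was lost (-0.63, limma adjusted p = 0.0544). It was also lost over 11 arrays (-0.56, adjusted p = 0.113), and kept in both sets after local backgrounds were repaired. With Dex, Ccl9 was higher on all 3 WT arrays and lower on all 3 GR-C3 arrays, but neither change passed (0.19 and -0.20 over 12 arrays, limma adjusted p = 0.284 and 0.375). The difference between them was -0.39 ± 0.12 over 12 arrays (adjusted p = 0.594) and -0.41 ± 0.11 over 11 (adjusted p = 0.122).

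Ccl3 and Ccl4, chemokines of the macrophage inflammatory protein group, lay at the lower end of detection. Ccl3 (chr11:83717761-83717820) was well above background on 2 of 3 WT vehicle arrays, at -6.61 and -5.87, on 1 GR-C3 vehicle array at -6.55, and on no Dex array, and it was not tested. Ccl4 (chr11:83734455-83734514) read -5.92, -5.72 and -5.51 in WT vehicle and was well above background in no other group. Signals there were -7.26, -6.73 and -7.06 in WT Dex, all below the WT vehicle arrays, as were -6.55, -6.54 and -6.65 in GR-C3 cells under vehicle and -7.25, -6.59 and -7.03 under Dex.

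The Ccl4 probe entered the tested set only through WT vehicle, so a higher level in that group is tied to the filter and the following values are a description. Ccl4 was at least 1.68-fold lower with Dex in WT cells over 12 arrays (limma adjusted p = 0.0383, and 0.0945 with no filter on dim probes) and at least 1.80-fold lower over 11 (adjusted p = 0.0015, and also called with no filter). Under vehicle it was at least 1.61-fold lower in GR-C3 than in WT cells over 12 arrays (adjusted p = 0.0066, and 0.013 with no filter). With planned normexp the signs of these Ccl4 differences turned (2.16 and 0.65 over 12 arrays), and after local backgrounds were repaired normexp gave 0.0028 and 0.059, so for this dim probe the direction depended on the background correction. With slide as a block the vehicle difference of Ccl4 did not pass (adjusted p = 0.0617). Over 12 arrays the Dex call of Ccl4 held without only 2 of the 12 arrays in turn, WT vehicle replicate 1 and WT Dex replicate 1, and over 11 arrays without each further array.

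Ccl20, the ligand of Ccr6 (chr1:83327742-83327801), read -2.15, -1.74 and -1.51 in WT vehicle and -2.43, -2.51 and -2.92 in WT Dex, with no overlap. In GR-C3 cells it read -1.87, -1.74 and -1.71 under vehicle and -1.94, -2.19 and -2.40 with Dex. Here too no array overlapped between the treatments.

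Over 11 arrays Ccl20 fell 1.99-fold with Dex in WT cells (-0.99 ± 0.17, limma adjusted p = 0.00462), and over 12 arrays its change of -0.82 ± 0.19 did not pass (adjusted p = 0.107). In GR-C3 cells the Ccl20 change was -0.40 ± 0.15 over 11 arrays (limma adjusted p = 0.214) and the interaction 0.59 ± 0.23 (adjusted p = 0.284). Under Dex Ccl20 was higher in GR-C3 cells by 0.44, which passed over 11 arrays (adjusted p = 0.0427) and not over 12 (adjusted p = 0.0916). The WT call was lost with slide as a block (-0.80, limma adjusted p = 0.111) or without a second array, WT vehicle replicate 3 (-0.88). The WT change turned to 0.51 with normexp over 11 arrays, which was not planned. The genotype difference turned to -0.56 with that correction and kept its call without only 3 of the 11 arrays in turn.

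Ackr4, the scavenging receptor, rose with Dex in WT cells over 11 arrays, where Ccl2, Ccl7 and Ccl20 fell. Its main probe (chr9:103814673-103814732) read -2.46, -2.65 and -2.45 in WT vehicle and -1.29, -1.52 and -1.40 in WT Dex. GR-C3 cells gave -4.21, -4.37 and -4.38 without Dex and -3.60, -3.32 and -3.31 with it. The 4 groups did not overlap, in the order WT Dex, WT vehicle, GR-C3 Dex, GR-C3 vehicle, and the array that stood apart lay within its group.

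Ackr4 rose with Dex 2.17-fold in WT cells (1.12 ± 0.12, limma adjusted p = 0.0241) and 1.88-fold in GR-C3 cells (0.91 ± 0.12, adjusted p = 0.0218) over 12 arrays. Over 11 arrays the changes were 1.15 (adjusted p = 0.000246) and 0.91 (adjusted p = 0.00196), and within slides 2 and 4 they were 1.26 and 0.97. The Dex changes of Ackr4 differed between genotypes by -0.21 (95% interval -0.57 to 0.15, limma adjusted p = 0.884). Over 12 arrays the WT call held without 4 of the 12 arrays in turn (WT vehicle replicate 1, WT Dex replicate 1, GR-C3 vehicle replicate 3 and GR-C3 Dex replicate 1) and was lost without each of the others, at changes of 1.05 to 1.17. The GR-C3 call held without 6 of 12, at 0.86 to 1.001, and over 11 arrays both held without each further array. With planned normexp over 12 arrays neither Dex change of Ackr4 passed (1.48, adjusted p = 0.0751 and 0.63, adjusted p = 0.998), and after local backgrounds were repaired the GR-C3 change was 0.51 and did not pass (adjusted p = 0.114).

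Ackr4 was 3.49-fold lower in GR-C3 than in WT cells under vehicle (-1.80 ± 0.12, limma adjusted p = 2.11e-06) and 4.03-fold lower under Dex (-2.01 ± 0.12, adjusted p = 1.16e-06) over 12 arrays. Over 11 arrays the differences were -1.77 and -2.01 (adjusted p = 7.85e-06 and 1.13e-06). Fitted with a slide block these were -1.57 and -1.86 and stayed called. With planned normexp over 12 arrays they were -0.73 and -1.59 and did not pass (adjusted p = 0.515 and 0.0525). Both stayed called with normexp after local backgrounds were repaired. A second Ackr4 probe, at chr9:103800787-103800846, was well above background on 11 of 12 arrays but dim, 0.055 to 2.09 above the array's lowest detected signal on the log2 scale. It read -6.30, -5.61 and -5.53 in WT vehicle, -5.48, -5.15 and -5.71 in WT Dex, -5.81, -5.95 and -4.84 in GR-C3 cells under vehicle and -5.08, -5.38 and -5.08 under Dex, with overlapping groups. No difference of this probe was called: its genotype difference under vehicle was 0.28 ± 0.29 (limma adjusted p = 0.528) and its Dex change in WT 0.36 ± 0.29 (adjusted p = 0.56) over 12 arrays, and 0.036 and 0.12 over 11. Its Dex change in GR-C3 cells was 0.35 ± 0.29 over 12 arrays (limma adjusted p = 0.696). The genotype differences and the Dex changes called for Ackr4 therefore rest on 1 of its 2 probes. Which transcript each probe measures was not determined. With the mean of both probes the Dex changes over 12 arrays were 0.74 and 0.63 and did not pass (limma adjusted p = 0.0951 and 0.136). Both Dex calls were kept with this mean over 11 arrays.

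Across the members, Dex in WT cells was called for 2 of 9 over 12 arrays (Ackr4 higher, Ccl4 lower), where 0.12% of all genes tested were called. Over 11 arrays it was called for 5 of 9 (Ackr4 higher; Ccl2, Ccl4, Ccl7 and Ccl20 lower), against 12.2% of all genes. In GR-C3 cells Dex was called for 1 of 9, Ackr4, over 12 arrays (0.101% of all genes) and for 2 of 9, Ackr4 and Ccl2, over 11 (3.47%). The interaction was called for 0 of 9 over 12 arrays (0% of all genes; 1282 of them had an unadjusted p under 0.05) and for Ccl2 over 11 (1.14%). The calls of Ccl4 in these counts, and of Ccl11 in those between genotypes, are tied to the filter as described. The Dex comparisons share their vehicle arrays with the genotype comparisons under vehicle.

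**Figure D2:**
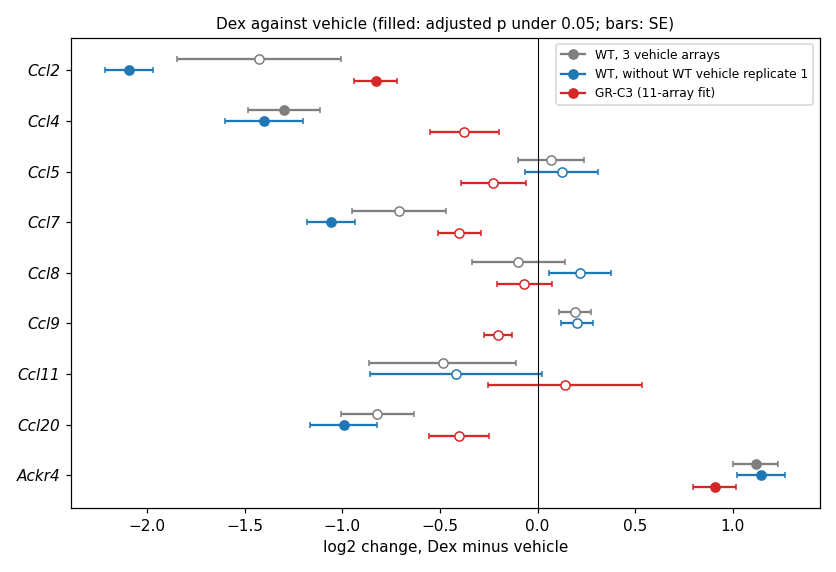
Log2 change with Dex (Dex minus vehicle, horizontal axis) of the 9 members tested, with SE, for WT cells over 12 and 11 arrays and for GR-C3 cells in the 11-array fit; filled points have an adjusted p under 0.05. Ccl2 lies at -2.09 in WT and -0.83 in GR-C3 cells, while Ackr4 lies at 1.15 and 0.91.

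Between genotypes, 5 of 9 members differed under vehicle over 12 arrays (Ccl7 and Ccl8 higher; Ccl4, Ccl9 and Ackr4 lower in GR-C3), where 24.8% of all genes were called, and the same 5 over 11 arrays (27.3% of all genes). Under Dex 6 of 9 differed over 12 arrays (Ccl2, Ccl7, Ccl8 and Ccl11 higher; Ccl9 and Ackr4 lower; 29.6% of all genes) and 7 over 11, with Ccl20 added to the higher (40.7%). The median of all genes lay at 0.11 under vehicle and 0.127 under Dex, so differences are relative to the array's percentile and not to that median; it was 0.0578 and 0.0465 with quantile normalization.

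**Figure D3:**
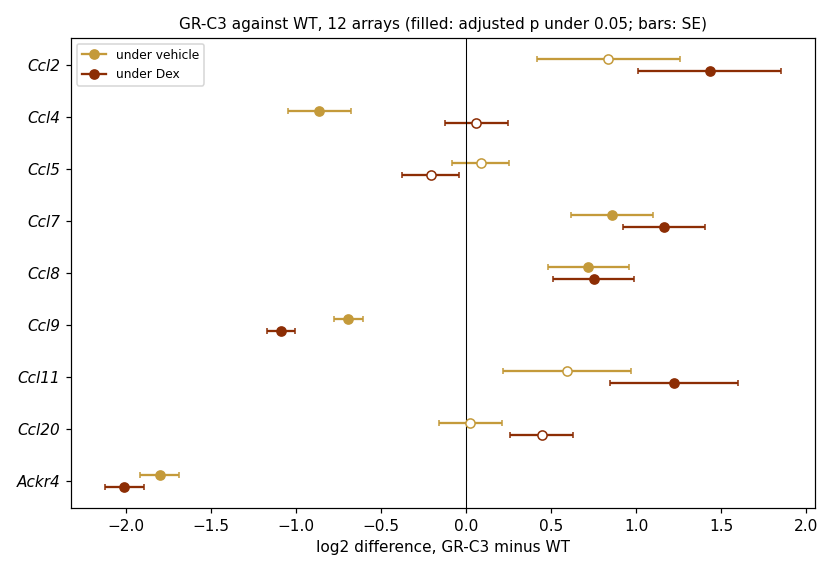
Log2 difference between genotypes (GR-C3 minus WT, horizontal axis) of the 9 members tested over 12 arrays, with SE, under vehicle and under Dex; filled points have an adjusted p under 0.05. Ackr4 lies lowest at -1.80 and -2.01, and Ccl2 lies at 1.43 under Dex; the points of Ccl4 and of Ccl11 under Dex include signals not well above background.

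Some markers of fibroblasts and of other cell types differed between genotypes. Those of fibroblasts and leukocytes were called at near the share of all genes. Of 9 fibroblast markers, 2 were lower in GR-C3 cells under vehicle and 3 under Dex over 12 arrays (24.8% and 29.6% of all genes were called). Over 11 arrays 3 and 4 were lower (27.3% and 40.7% of all genes), and none was higher. Of 5 epithelial markers, Krt8, Krt18 and Krt19 were tested and all 3 were higher in GR-C3 cells over 12 arrays under both treatments (Krt19 by 2.77 under vehicle). Over 11 arrays Krt8 did not pass under vehicle (0.45, adjusted p = 0.0591), and Cdh1 was well above background on no array. Their summed log2 level ran from -0.11 to -0.034 under vehicle and -0.53 to -0.20 under Dex in WT cells, and from 2.32 to 2.43 and 1.95 to 1.9998 in GR-C3 cells. Of 6 endothelial markers, 3 were tested. Emcn was higher in GR-C3 cells (1.89 under vehicle over 12 arrays and 2.01 over 11), Tek and Vwf passed in no comparison (-0.20 and 0.15 under vehicle over 12 arrays, adjusted p = 0.613 and 0.46), and Cdh5 and Tie1 were well above background on no array. The endothelial sum ran from -0.87 to -0.37 under vehicle and -0.72 to -0.45 under Dex in WT cells, and from 0.78 to 0.98 and 1.06 to 1.19 in GR-C3 cells. Of 12 leukocyte markers, 10 were well above background on all arrays, and Itgam on 2 arrays. Ptprc, the pan-leukocyte phosphatase, and the lysozyme gene Lyz2 were lower in GR-C3 cells under vehicle (-1.25 and -0.39), while Aif1 and Fcgr1 were higher under Dex (0.95 and 0.79), all over 12 arrays. Of 11 leukocyte markers tested, 0 were higher and 2 lower under vehicle, and 2 were higher and 2 lower under Dex. Of all genes, 24.8% and 29.6% were called.

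The summed leukocyte level ran from 2.90 to 3.18 under vehicle and 2.82 to 3.04 under Dex in WT cells, and from 2.74 to 2.86 and 2.54 to 2.64 in GR-C3 cells. Ptprc and Adgre1 fell with Dex in WT cells over 11 arrays (-1.12 and -0.43), the only 2 of 11 leukocyte markers tested that were called. In this comparison 12.2% of all genes were called. The part of these marker genes in the chemokine and Ackr4 results was not tested. In bulk RNA, fewer cells of a type and less RNA per cell cannot be told apart.

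Of the ligand genes, 8 lie on chromosome 11, and Ccl1, Ccl6 and Ccl12 lie among them, so that 11 genes could be placed in probe order. This grouping by position was made after the values were seen and is a description. In the stretch from Ccl2 to Ccl1, 5 genes were tested, of which Ccl2, Ccl7, Ccl12 and Ccl8 were higher in GR-C3 cells under Dex over 12 arrays, as was Ccl11, which was in the tested set only through GR-C3 Dex. Ccl12 too was close to background, well above it on 10 of 12 arrays, with mean levels of -6.40 in WT Dex and -5.70 in GR-C3 Dex. Under vehicle 2 of the 5, Ccl7 and Ccl8, were higher. In the stretch from Ccl5 to Ccl4, 2 of 4 tested, Ccl9 and Ccl6, were lower under Dex, 3 of 4 with Ccl4 under vehicle, where Ccl4 is tied to the filter, and none was higher. Of all genes, 29.6% were called under Dex (3655 higher and 2520 lower) and 24.8% under vehicle (3037 higher and 2123 lower). The counts in both stretches were the same over 11 arrays. Probes of different genes among these and Ccl20 shared runs of at most 13 of 60 bases. Probes were compared only with each other, and their match to transcripts of the other genes was not tested.

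**Figure D4:**
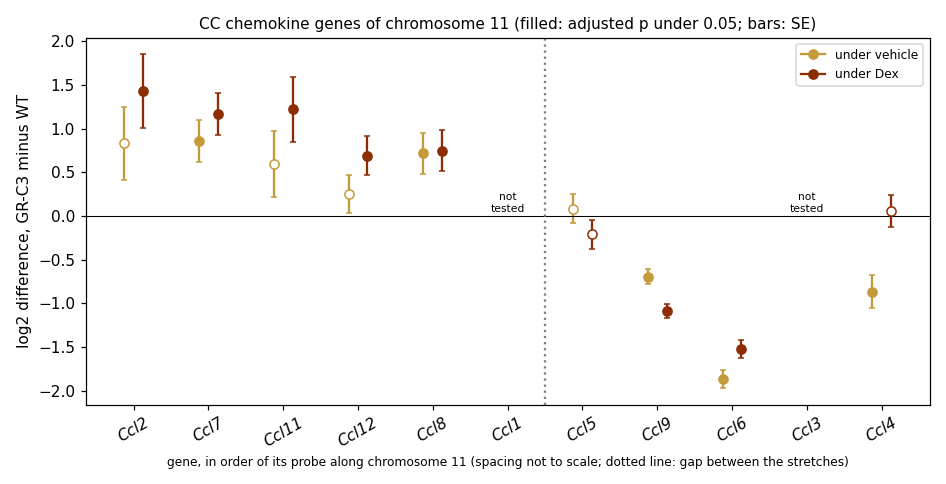
Log2 difference between genotypes (GR-C3 minus WT, vertical axis) of the 9 genes tested among 11 CC chemokine genes of chromosome 11, in the order of their probes (Ccl1 and Ccl3 were not tested), over 12 arrays with SE; spacing is not to scale and filled points have an adjusted p under 0.05. Points from Ccl2 to Ccl8 lie above 0 and those of Ccl9 and Ccl6 below it.

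Of 15 other CC ligand genes, 11 were on the arrays and 8 were tested. Between genotypes over 12 arrays, 1 of 8 was lower under vehicle, where 24.8% of all genes were called. Under Dex 1 was higher and 2 were lower (29.6% of all genes). Ccl6, a Ccr1 ligand next to Ccl9, was lower in GR-C3 cells under vehicle and under Dex (log2 differences of -1.86 ± 0.11 and -1.52 ± 0.11, limma adjusted p = 1.02e-06 and 3.55e-06). It rose with Dex in GR-C3 cells over 11 arrays by 0.46 (adjusted p = 0.0328). Ccl12, a Ccr2 ligand close to background, was higher by 0.69 under Dex (adjusted p = 0.0374), and Ccl17, a Ccr4 ligand, lower (-0.62, adjusted p = 0.0111). Ccl19 and Ccl25, both ligands of Ackr4, and Ccl27a did not pass in any comparison, and no Dex change in WT passed for any of the 8.

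Of 15 receptor genes, 9 were tested. Between genotypes over 12 arrays, 1 of 9 was lower under vehicle, where 24.8% of all genes were called. Under Dex 1 was higher and 2 were lower (29.6% of all genes). Ccr1, a receptor of Ccl9, and Ccr2, the receptor of Ccl2 and Ccl7, were well above background on no array. Ackr3, an atypical receptor of CXC ligands, was lower in GR-C3 cells (-0.95 under vehicle, limma adjusted p = 0.000759, and -0.49 under Dex) and fell with Dex in WT cells over 11 arrays (-0.47, adjusted p = 0.0306), opposite to Ackr4. Ackr1, which binds many chemokines, was higher under Dex (0.71, adjusted p = 0.0196), and Ccr6, the receptor of Ccl20, lower (-1.33, adjusted p = 0.0178). Ccr9 was lower under Dex over 11 arrays (log2 difference -0.9997, adjusted p = 0.0491). Ackr2, which scavenges inflammatory CC chemokines, did not pass in any comparison.

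The 3 genes whose levels over the 12 arrays were most like those of a member, by Pearson correlation, were Nr2e1, Kif21b and Pik3r3 for Ccl2 (r of 0.9898 to 0.9955), Ttc39b, Pwp1 and Has2 for Ccl7 (0.98 to 0.99) and Cdo1, Grk5 and Mark1 for Ackr4 (0.98 to 0.99). They were Nebl, Plpp7 and Ccpg1 for Ccl9 (0.99), Snrpg, Ppp6r2 and Hnrnpu for Ccl8 (0.97 to 0.98), Zfp273, Rwdd3 and Zfp951 for Ccl20 (0.96), Hspa12b, Nphp4 and Accs for Ccl4 (0.92 to 0.94) and S100pbp, Spata13 and Zc3h4 for Ccl11 (0.86 to 0.91). The arrays fall into 4 groups and were searched over all genes, so these values describe a shared order of groups and carry no test.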

How the data were processed

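The authors deposited Agilent scanner files with spot intensity values, background-subtracted and, per the file headers, made with Feature Extraction 9.5.3.1 (9.5 per the submitters' processing notes). The deposited value table equals these processed signals. Probe positions are in mm7 per the file headers. Control spots and outlier-called spots were left out and saturated ones kept. The expression value was the log2 signal minus the array's 75th percentile over all non-control spots. Other readings of that percentile, over averaged probes and over spots without outlier calls, were also computed, and the one kept was chosen with all their calls seen. A probe entered if every array of some group measured it well above background (30934 of 41174). Each gene took its probe with the highest mean. Symbols came from accessions for 22951 probes, symbols for 6659, synonyms for 3109, and the file for 8455.

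limma 3.58.1 in R 4.3.3 was fitted to all genes with 1 coefficient per group, and a Benjamini-Hochberg adjusted p-value under 0.05 made a call. Where a group is not well above background, "at least N-fold" sets the brighter group's mean against, per array of the dim group, the probe's signal or the array's lowest detected signal, whichever is higher. The script was tested on simulated data. A permutation test of 3 arrays against 3 cannot go below 0.1. Slide, replicate number, normalization, filter and probe choice were varied, and arrays left out in turn. All members were named, with called members of the lists and up to 3 of the brightest. The members, lists and the 11-array set were chosen with earlier results of these data known.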

Additional observations from a re-analysis of the deposited data

Results flagged for a closer look

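The Dex change of Ccl2 differed between the genotypes by the interaction test over 11 arrays (WT vehicle replicate 1 left out): the change in GR-C3 cells minus that in WT cells was 1.26 ± 0.16 (limma adjusted p = 0.00734), with Ccl2 lower on all Dex arrays of both genotypes than on their vehicle arrays. With that array included the difference was 0.60 (limma adjusted p = 0.917), and with normexp over 11 arrays 1.69 (adjusted p = 0.457). With slide as a block, whose term takes up that array, it was 1.12 (adjusted p = 0.168). The interaction kept its call over 11 arrays with normexp after local backgrounds were repaired. Outliers within groups were not tested, since each group holds 3 arrays.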

How the results depend on the processing

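Of 1106 values over 12 arrays under the alternatives, 951 kept their sign and their side of the threshold, 104 changed only the call and 51 changed sign, of which 6 were called in one of the settings. Over 11 arrays, where each alternative was added after seeing the data, 983 of 1061 kept both, 46 changed only the call and 32 changed sign (6 called). Both other percentile scalings, likewise added, left every number of members called as it was. Replicate numbers did not pair the arrays: deviations of same-numbered arrays correlated from -0.215 to 0.214. With the replicate block, 4 members differed under vehicle and 5 under Dex over 12 arrays, where 5048 of 20836 and 5879 of 20836 genes did; below, the genes called of all genes tested stand in parentheses beside each number of members. The planned normexp correction moved the median of all genes to 0.552 for Dex in WT and -0.4 for genotype under Dex. Where a fit leaves 1 array in a group, that array is assumed to vary like the others. The cause of the changes was not tested. Signals near background limit Ccl3, Ccl4 and Ccl11. With normexp, over 12 arrays, the sign turned for Dex in WT (Ccl8 0.81, Ccl20 0.64, Ccl11 2.37 and Ccl4 2.16), Dex in GR-C3 (Ccl5 0.043 and Ccl4 0.40), the interaction (Ccl8 -0.84, Ccl20 -0.75, Ccl11 -1.97 and Ccl4 -1.76), genotype under vehicle (Ccl4 0.65), genotype under Dex (Ccl8 -0.11, Ccl20 -0.56, Ccl11 -1.03 and Ccl4 -1.11). Over 11 arrays, normexp turned it for Dex in WT (Ccl20 0.51, Ccl11 2.29 and Ccl4 2.10), Dex in GR-C3 (Ccl5 0.043 and Ccl4 0.40), the interaction (Ccl20 -0.61, Ccl11 -1.89 and Ccl4 -1.70), genotype under vehicle (Ccl20 0.049 and Ccl4 0.59), genotype under Dex (Ccl8 -0.11, Ccl20 -0.56, Ccl11 -1.03 and Ccl4 -1.11). With normexp, local backgrounds repaired, over 12 arrays, the sign turned for Dex in WT (Ccl11 0.23 and Ccl4 0.0028), Dex in GR-C3 (Ccl11 -0.024), the interaction (Ccl8 -0.092, Ccl11 -0.26 and Ccl4 -0.052), genotype under vehicle (Ccl4 0.059). Over 11 arrays, normexp, local backgrounds repaired turned it for Dex in WT (Ccl11 0.11), Dex in GR-C3 (Ccl11 -0.024), the interaction (Ccl11 -0.14). With quantile normalization, over 12 arrays, the sign turned for the interaction (Ccl8 -0.00069), genotype under Dex (Ccl4 -0.26). Over 11 arrays, quantile normalization turned it for genotype under vehicle (Ccl2 -0.029), genotype under Dex (Ccl4 -0.26). With mean over kept probes of a gene, over 12 arrays, the sign turned for genotype under vehicle (Ccl5 -0.11). Over 11 arrays, mean over kept probes of a gene turned it for genotype under vehicle (Ccl5 -0.093). With slide as a fixed block, over 12 arrays, the sign turned for Dex in WT (Ccl8 0.049, Ccl5 -0.17 and Ccl11 0.14), Dex in GR-C3 (Ccl11 -0.28), the interaction (Ccl8 -0.30 and Ccl11 -0.42), genotype under vehicle (Ccl5 -0.36). Over 11 arrays, slide as a fixed block turned it for Dex in WT (Ccl5 -0.17 and Ccl11 0.14), Dex in GR-C3 (Ccl11 -0.28), the interaction (Ccl11 -0.42), genotype under vehicle (Ccl20 0.10 and Ccl5 -0.36). With slide as a random block, over 12 arrays, the sign turned for Dex in WT (Ccl5 -0.026), Dex in GR-C3 (Ccl11 -0.18), the interaction (Ccl8 -0.11 and Ccl11 -0.018), genotype under vehicle (Ccl5 -0.094). Over 11 arrays, slide as a random block turned it for Dex in GR-C3 (Ccl11 -0.0403). The members called, with normexp, numbered 0 for Dex in WT (0 of 20836 genes) over 12, 0 for Dex in GR-C3 (0 of 20836 genes) over 12, 0 for genotype under vehicle (377 of 20836 genes) over 12, 2 for genotype under Dex (455 of 20836 genes) over 12, 2 for Dex in WT (170 of 20836 genes) over 11, 0 for Dex in GR-C3 (6 of 20836 genes) over 11, 0 for the interaction (0 of 20836 genes) over 11, 0 for genotype under vehicle (292 of 20836 genes) over 11 and 3 for genotype under Dex (852 of 20836 genes) over 11 arrays; those called, with normexp, local backgrounds repaired, numbered 1 for Dex in WT (37 of 20836 genes) over 12 and 0 for Dex in GR-C3 (14 of 20836 genes) over 12 arrays. The members called, with quantile normalization, numbered 1 for Dex in WT (44 of 20836 genes) over 12 arrays; those called, with no filter on dim probes, numbered 0 for Dex in WT (0 of 27670 genes) over 12 arrays. The members called, with well above background on all 12 arrays, numbered 1 for Dex in WT (24 of 18616 genes) over 12 arrays; those called, with mean over kept probes of a gene, numbered 1 for Dex in WT (15 of 20836 genes) over 12 and 0 for Dex in GR-C3 (12 of 20836 genes) over 12 arrays. The members called, with only the groups compared, numbered 0 for Dex in WT (0 of 20836 genes) over 12, 2 for Dex in GR-C3 (692 of 20836 genes) over 12 and 3 for genotype under vehicle (3867 of 20836 genes) over 12 arrays; those called, with slide as a fixed block, numbered 4 for Dex in WT (1019 of 20836 genes) over 12, 2 for Dex in GR-C3 (317 of 20836 genes) over 12, 2 for genotype under vehicle (1630 of 20836 genes) over 12, 0 for the interaction (36 of 20836 genes) over 11, 2 for genotype under vehicle (1630 of 20836 genes) over 11 and 4 for genotype under Dex (3236 of 20836 genes) over 11 arrays. The members called, with slide as a random block, numbered 3 for genotype under vehicle (3603 of 20836 genes) over 12 arrays; those called, with replicate block, numbered 0 for Dex in WT (0 of 20836 genes) over 12 and 0 for Dex in GR-C3 (10 of 20836 genes) over 12 arrays. With each array left out in turn, the number called ran from 0 to 5 for Dex in WT (0 to 2548 of all genes) over 12, from 0 to 2 for Dex in GR-C3 (2 to 722 of all genes) over 12, from 0 to 1 for the interaction (0 to 237 of all genes) over 12, from 3 to 5 for genotype under vehicle (3241 to 5687 of all genes) over 12, from 3 to 7 for genotype under Dex (4001 to 8483 of all genes) over 12, from 1 to 2 for the interaction (58 to 1184 of all genes) over 11 and from 3 to 6 for genotype under vehicle (2549 to 6883 of all genes) over 11 arrays. Log2 changes that changed sign ran from -0.29 to 0.22 for Ccl8 in Dex in WT over 12, from -0.13 to 0.22 for Ccl5 in Dex in WT over 12, from -0.12 to 0.024 for Ccl8 in Dex in GR-C3 over 12, from -0.35 to 0.42 for Ccl11 in Dex in GR-C3 over 12, from -0.28 to 0.22 for Ccl8 in the interaction over 12, from -0.15 to 0.17 for Ccl20 in genotype under vehicle over 12, from -0.12 to 0.21 for Ccl4 in genotype under Dex over 12, from -0.073 to 0.27 for Ccl5 in Dex in WT over 11, from -0.12 to 0.024 for Ccl8 in Dex in GR-C3 over 11, from -0.35 to 0.42 for Ccl11 in Dex in GR-C3 over 11 and from -0.12 to 0.21 for Ccl4 in genotype under Dex over 11 arrays.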
